A study of Sus scrofa with 32 samples.

Results

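The genes described here encode nuclear subunits of the mitochondrial respiratory chain (complexes I to IV) and of the ATP synthase (complex V). They were chosen by name: pig symbols beginning with NDUF, UQCR, COX followed by 4 to 8, or ATP5, the subunits SDHA to SDHD, and the cytochrome genes CYCS and CYC1. Of 79 such symbols in the pig annotation, 18 had a probe on the array that could be matched to them, and all 18 were measured, out of 28670 features tested. These were NDUFV2, NDUFB6, NDUFB8 and NDUFC1 of complex I, SDHB and SDHD of complex II, UQCR10 of complex III, NDUFA4, COX6B, COX6C, COX7A1, COX7A2, COX7C and COX8H of complex IV, and ATP5G1, ATP5I, ATP5J2 and ATP5O of complex V. The rule used names alone, and measured values entered through the background filter, which all 18 passed, and through the choice of the brightest probe of a gene.

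Complexes I and II pass electrons from NADH and succinate to coenzyme Q, complex III hands them on to cytochrome c, and complex IV reduces oxygen with them. Complexes I, III and IV pump protons across the inner mitochondrial membrane, and the ATP synthase uses the return flow to make ATP. The catalytic core of several of these complexes is encoded in mitochondrial DNA, while the subunits measured here come from nuclear genes. The fetal liver makes blood cells early in gestation and gives that up as hepatocytes take over, so its mix of cells changes as well as its metabolism.

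Livers of pig fetuses were profiled at gestational days 37, 50, 70 and 110 on 1-colour Agilent arrays, each array holding the RNA of 1 fetus. Every pregnancy, those of the control fetuses included, was in a gilt made pregnant by artificial insemination after 1 uterine horn and ovary had been taken out, which crowds the uterus. At each day 4 control fetuses and 4 runts (growth-restricted fetuses of the crowded uterus) were sampled, for 8 groups and 32 arrays. Per the labels the livers of a day came from 4 separate pregnancies and control and runt fetuses were littermates, but the labels do not say which arrays share a litter.

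Levels are the log2 processed signal minus the 75th percentile of the array, so that 0 is the signal at that percentile, and changes are differences of such levels. A gene was called at an adjusted p under 0.05 in limma, with Benjamini-Hochberg adjustment over all features. The 75th percentile of the arrays lay between 177 and 460 intensity units, 50.7% to 69.4% of the probes of an array were well above background, and replicate arrays correlated at 0.953 to 0.988 across probes. Days 37, 50, 70 and 110 sat at slide positions 1, 2, 3 and 4, except for 1 day 50 runt at position 1, so day and position cannot be told apart. The 9 slides fell into slides 1 to 3 (12 arrays) and slides 4 to 9 (20 arrays), and both sets held control and runt arrays. With 4 arrays a group, the number of arrays limits the precision.

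Most of these transcripts changed little over gestation. The difference between the highest and the lowest of the 8 group means had a median of 0.47 on the log2 scale (1.38-fold) over the 18 genes, against 1.04 over all features tested and 0.88 over the features above background on all 32 arrays. It reached 2-fold for 2 of the 18 genes (11.1%), UQCR10 and COX8H, and for 52.3% of all features. On the brightest probes it stayed under 0.5 for 11 genes (61.1%) and for 11.4% of all features. Not every probe of these 11 genes did so, as the second NDUFV2 probe had group means from 5.05 down to 4.24. The median SD between replicates was 0.21 for these genes, 0.34 for all features and 0.27 for the features above background on all 32 arrays. Part of each range of group means comes from this spread. Apart from COX8H, these genes were bright, with mean levels from 3.51 to 7.1. Here and below, the features compared with them were not matched for level or SD. Whether equally bright features changed as little was not tested. COX8H was well above background on 24 of the 32 arrays and the other 17 genes on all of them.

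**Figure D1:**
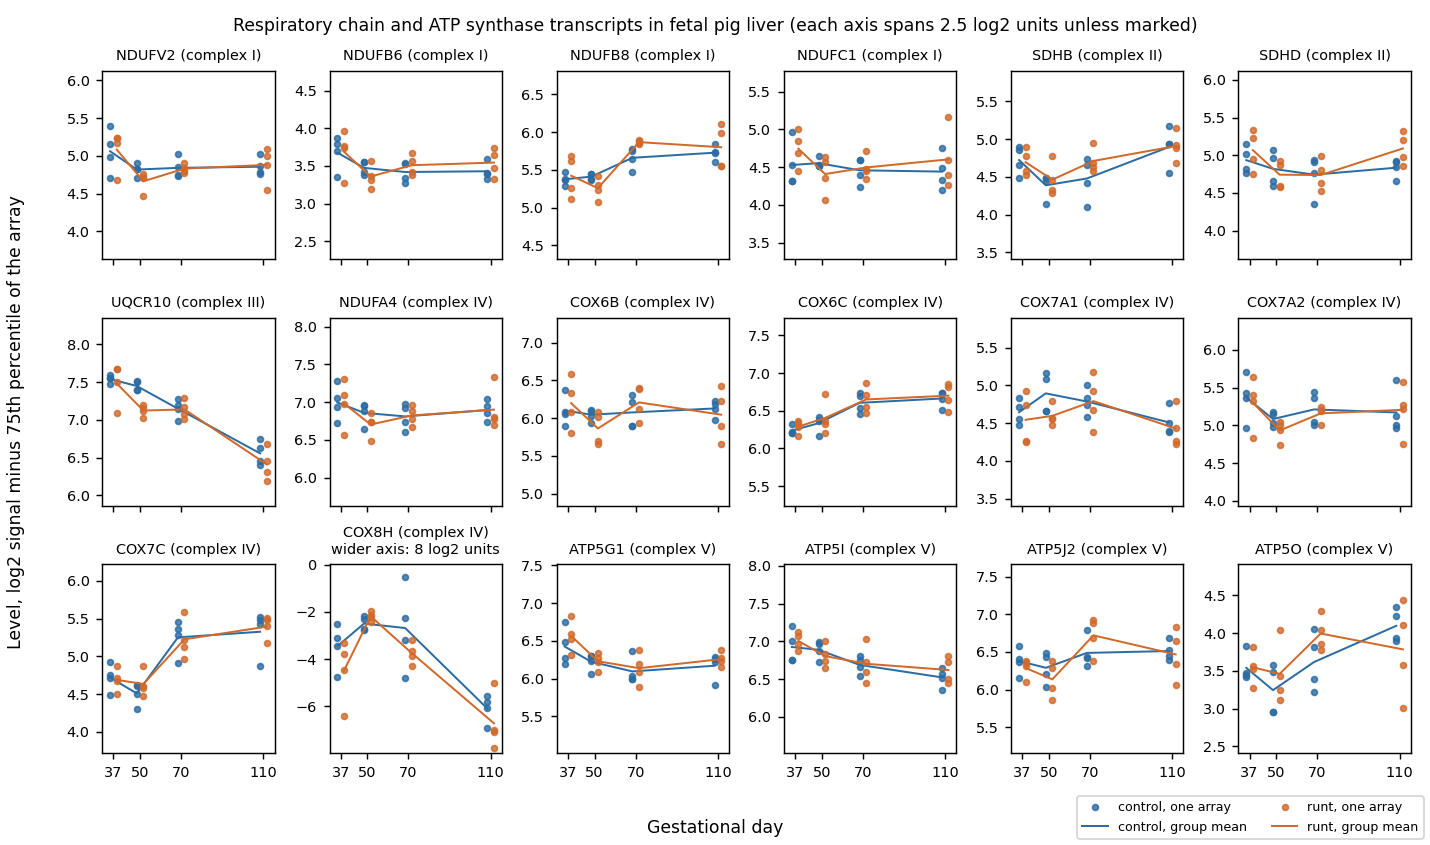
Level of each of the 18 genes on every array (log2 signal minus the array's 75th percentile) against gestational day, controls in blue and runts in orange, with lines joining the means of 4 arrays. UQCR10 and COX8H ended far below where they began, COX7C rose between days 50 and 70, and on their brightest probes 11 of the genes kept all 8 group means within 0.5 of each other.

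Over the whole control course, day 110 against day 37, 6 of the 18 genes were called, 3 higher and 3 lower, where 53.1% of all features were called, 27.1% higher and 26% lower. COX7C, COX6C and NDUFB8 rose, and UQCR10, COX8H and ATP5I fell. The median size of change, without regard to direction, was 0.22 for the 18 genes and 0.63 for all features. One of the 18 both passed the test and changed at least 2-fold, COX8H, against 29.3% of all features. COX8H passed the background filter through the earlier days and was well above background on 1 of 4 day 110 control arrays, so its size of change is uncertain. Among the features above background on all 32 arrays, which leave out COX8H, 4 of these genes were called higher and 2 lower, where 58.3% of features were called. The groups did not overlap for 6 genes, the called ones other than COX7C and also ATP5O, where 45.8% of all features had groups that did not overlap. With another background correction (normexp) UQCR10 was the 1 gene of the 18 called. With all probes of a gene averaged 3 were called higher and 5 lower, where 53.2% of all features were called.

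In complex I, the NADH dehydrogenase, 1 of 4 genes was called on its brightest probe, and another, NDUFV2, was called with its probes averaged. NDUFB8, an accessory subunit of the membrane arm, stood at 5.28, 5.47, 5.37 and 5.38 in the day 37 controls and at 5.84, 5.61, 5.74 and 5.72 in the day 110 controls. All the later arrays were above all the earlier ones, a rise of 0.35 (SE 0.13, n = 4 and 4, adjusted p = 0.0228). NDUFV2, an iron-sulfur core subunit, changed by -0.20 on its brightest probe (95% interval -0.49 to 0.08), by -0.78 on its second (adjusted p = 5.14e-06) and by -0.49 with both averaged (adjusted p = 0.00152). NDUFB6, another subunit of the membrane arm, changed by -0.24 (95% interval -0.52 to 0.04). NDUFC1, a small accessory subunit, had values of 4.31, 4.53, 4.31 and 4.96 at day 37 and of 4.49, 4.33, 4.19 and 4.75 at day 110. These groups overlapped, with a difference of -0.09 (95% interval -0.45 to 0.28). The rise of NDUFB8 lost its call without day 37 control replicate 1 or day 110 control replicate 1 (adjusted p up to 0.06), and on slides 4 to 9 alone (0.36, adjusted p = 0.0617).

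Neither gene of complex II, the succinate dehydrogenase, was called over the whole control course. SDHB carries the iron-sulfur clusters and SDHD anchors the enzyme in the membrane. SDHB changed by 0.18 (95% interval -0.14 to 0.50) and SDHD by -0.10 (-0.42 to 0.23). SDHD stood at 4.76, 5.01, 4.82 and 5.15 at day 37 and at 4.91, 4.84, 4.66 and 4.93 at day 110, so that the groups overlapped.

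UQCR10, a small subunit of complex III and the gene of that complex measured here, fell over the control course. Of the intervals between consecutive days, the last was called. The changes from day 37 to day 50 (-0.09, adjusted p = 0.723) and from day 50 to day 70 (-0.30, adjusted p = 0.0701) were not. The day 37 controls had 7.59, 7.55, 7.47 and 7.55, the day 50 controls 7.51, 7.39, 7.39 and 7.50, the day 70 controls 7.14, 6.99, 7.19 and 7.27, and the day 110 controls 6.62, 6.46, 6.40 and 6.74. Every day 110 array lay below every array of the 3 earlier days, and the day 70 arrays lay below those of day 50. From day 37 to day 110 the level fell by 0.99, a 1.98-fold difference (change -0.99, SE 0.12, n = 4 and 4, adjusted p = 1.32e-07). On slides 4 to 9 the change was -1.05 (adjusted p = 3.58e-05), on slides 1 to 3, with 1 array a group, -0.81, and with slide as a fixed block -0.95 (adjusted p = 3.59e-05).

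In complex IV, the cytochrome c oxidase, 2 genes rose, 1 fell and 4 were not called. COX7C, a small nuclear-encoded subunit, had 4.71, 4.93, 4.75 and 4.49 in the day 37 controls and 4.62, 4.61, 4.50 and 4.31 in those of day 50. It had 5.45, 5.36, 5.29 and 4.91 at day 70 and 5.52, 5.43, 4.88 and 5.48 at day 110. The day 70 arrays were all above the day 50 arrays, whereas day 110 control replicate 3 lay below 1 array of day 37. From day 37 to day 110 COX7C rose by 0.61 (SE 0.15, n = 4 and 4, adjusted p = 0.00167), with 0.48 on slides 4 to 9 (adjusted p = 0.0322) and 0.99 between the 1 array of each group on slides 1 to 3.

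COX6C, another small accessory subunit, had 6.20, 6.33, 6.20 and 6.22 at day 37 and 6.74, 6.66, 6.51 and 6.74 at day 110. These groups did not overlap, and the rise was 0.43 (SE 0.12, n = 4 and 4, adjusted p = 0.00308). NDUFA4, a subunit named for complex I and now assigned to complex IV, had 6.72, 6.93, 7.05 and 7.28 at day 37 and 6.95, 6.73, 6.86 and 7.04 at day 110, a change of -0.10 (95% interval -0.42 to 0.21). COX6B, a subunit on the cytochrome c side of the enzyme, had 6.08, 6.37, 6.05 and 5.90 at day 37 and 6.19, 6.23, 5.97 and 6.12 at day 110. COX6B showed the smallest change of the 18 genes on its brightest probe, 0.03 (95% interval -0.32 to 0.37), but with all its probes averaged it was called lower (-0.45, adjusted p = 0.00315).

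COX7A was the one subunit with both of its isoform genes measured, COX7A1, the form of heart and skeletal muscle, and COX7A2, the form of liver and most other tissues. COX7A1 had 4.71, 4.84, 4.48 and 4.55 in the day 37 controls and 4.77, 4.50, 4.38 and 4.39 in the day 110 controls. COX7A2 had 4.97, 5.43, 5.37 and 5.71 and then 4.97, 5.0, 5.12 and 5.60. Both pairs of groups overlapped, and neither gene was called, with changes of -0.13 (95% interval -0.50 to 0.23) for COX7A1 and -0.19 (-0.56 to 0.17) for COX7A2.

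COX8H, the heart and muscle form of subunit VIII, was by far the dimmest of the 18 and had the widest differences. It was well above background on every control array of days 37, 50 and 70, and it passed the background filter through those earlier days. The day 37 controls had -3.09, -4.76, -3.45 and -2.51, the day 50 controls -2.32, -2.71, -2.18 and -2.76, and the day 70 controls -3.18, -4.80, -2.25 and -0.50. The day 110 controls had -5.58, -6.06, -5.84 and -6.91, all below every earlier control array, and 1 of these 4 was well above background. The measured difference from day 37 was -2.64 (SE 0.68, n = 4 and 4, adjusted p = 0.0018), and with 3 of the day 110 values not well above background its size is uncertain. It was -2.06 on slides 4 to 9 (adjusted p = 0.00257), -4.40 between the 1 array of each group on slides 1 to 3, and -0.74 with normexp (adjusted p = 0.151).

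**Figure D2:**
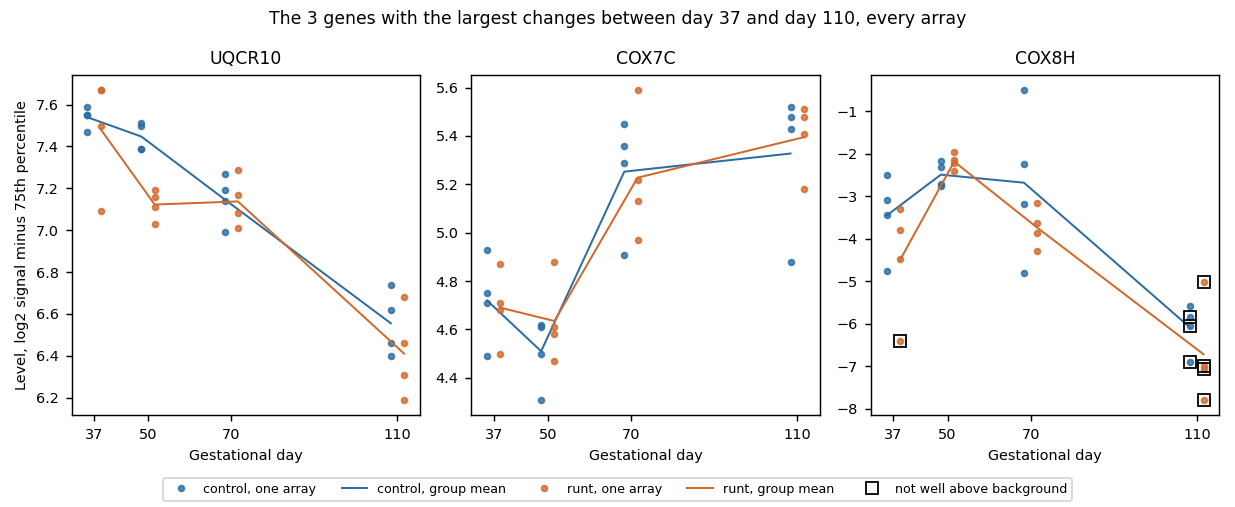
Level on every array (log2 signal minus the array's 75th percentile) against gestational day for UQCR10, COX7C and COX8H, controls in blue and runts in orange, with lines joining the means of 4 arrays and squares around COX8H values not well above background. All day 110 values of UQCR10 lie below all values of the earlier days, and 7 of the 8 day 110 values of COX8H are not well above background.

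Transcripts of red cell precursors and of dividing cells fell over the same interval. All 4 erythroid markers measured fell (median -4.08), and their summed level, with the 75th percentile signal as 1, went from 86.8 to 149 in the day 37 controls to 2.72 to 13.5 in the day 110 controls. All 6 cell cycle genes fell (median -3.58), and all 4 markers of Kupffer cells and monocytes rose (median 2.07). Of 6 muscle markers measured, TNNI1, the slow skeletal troponin I, fell (-4.81, adjusted p = 1.10e-07), TNNI2, the fast form (2.85), and CKM, the muscle creatine kinase (1.81), rose, and 3 were not called. Their summed level was 16.3 to 34.5 at day 37 and 17.9 to 30.6 at day 110. The 4 erythroid markers were still well above background on all 4 control arrays of day 110. Of 7 hepatocyte markers 2 rose, 1 fell and 4 were not called. The part of these cell types in the results on UQCR10, COX8H or any other subunit was not tested, and in whole tissue fewer cells of a type and less RNA per cell cannot be told apart.

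In complex V, the ATP synthase, 1 of 4 genes was called. ATP5I, subunit e of the membrane sector, had 6.75, 7.0, 6.75 and 7.20 in the day 37 controls and 6.65, 6.35, 6.57 and 6.52 in the day 110 controls. The groups did not overlap, with a fall of 0.40 (change -0.40, SE 0.13, n = 4 and 4, adjusted p = 0.01), which without day 37 control replicate 4 had an adjusted p of 0.0531. The call of ATP5I was also lost with slide as a fixed block (-0.31, adjusted p = 0.0564), on slides 4 to 9 (-0.31, adjusted p = 0.139) and with only the groups compared in the fit (adjusted p = 0.0609). ATP5O, which joins the catalytic head to the stator stalk, had 3.44, 3.83, 3.47 and 3.42 and then 4.34, 4.23, 3.93 and 3.89. Its groups did not overlap either, but the difference of 0.56 (95% interval 0.05 to 1.07) had an adjusted p of 0.0576 and was not called. It passed under 9 alternatives, among them quantile normalization (0.60, adjusted p = 0.0409) and slide as a fixed block (0.48, adjusted p = 0.0429). Over the same interval in the runts ATP5O changed by 0.24 (95% interval -0.27 to 0.75, adjusted p = 0.442), with groups that overlapped. ATP5G1, one of the genes for the ring of c subunits, changed by -0.25 (95% interval -0.53 to 0.02), and ATP5J2, subunit f of the membrane sector, by 0.14 (-0.20 to 0.47).

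**Figure D3:**
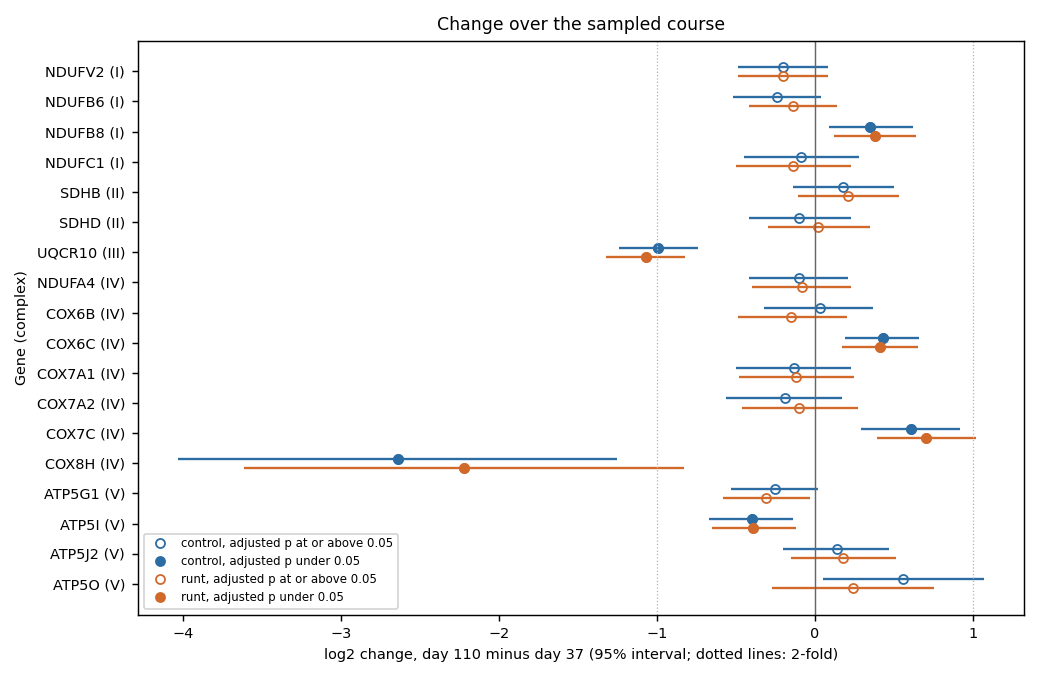
Change from day 37 to day 110 for each gene (log2, day 110 minus day 37) with its 95% interval, controls in blue and runts in orange, filled where the adjusted p was under 0.05. The same 6 symbols are filled in both courses, UQCR10 near -1 in both, and the other 12 genes lie within 0.6 of 0.

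Between consecutive days of the control course few of the 18 genes were called. From day 37 to day 50 the number was 0 in limma, with 1 gene at an unadjusted p under 0.05, and 7.38% of all features were called. From day 50 to day 70 it was 1 on the brightest probes, where 24.5% of all features were called. COX7C rose there by 0.74 (SE 0.15, adjusted p = 0.00123). With quantile normalization 3 were called there, 1 higher and 2 lower, as UQCR10 (-0.49, adjusted p = 0.0261) and ATP5I (-0.40, adjusted p = 0.0272) joined COX7C. COX7C was 0.70 higher on slides 1 to 3 (adjusted p = 0.158) and 0.79 higher on slides 4 to 9 (adjusted p = 0.0564).

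From day 70 to day 110 the controls had 3 calls among the 18 genes, where 26.5% of all features were called. UQCR10 fell by 0.60 (SE 0.12, adjusted p = 0.000486) and the measured difference of COX8H, well above background on 1 of the 4 day 110 arrays, was -3.42 (SE 0.68, adjusted p = 0.000352). SDHB rose by 0.42 (SE 0.16, adjusted p = 0.0469), from 4.42, 4.73, 4.66 and 4.10 to 5.17, 4.93, 4.93 and 4.55, groups that overlapped. The call of SDHB was lost in 5 of the 8 fits that left out 1 array, with adjusted p up to 0.193. The arrays in question were day 70 control replicates 1 and 4 and day 110 control replicates 1, 2 and 3.

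The runts, littermates of the controls per the labels, gave a second course. It shares pregnancies and the order of slide positions with the control course, so it is not an independent repeat. From day 37 to day 110, 6 of the 18 genes were called in the runts, where 50% of all features were (27.3% higher and 22.7% lower), and they were the 6 called in the controls, each in the same direction. Over all features 12643 were called in both courses, 83% of those called in controls and 88.1% of those called in runts. COX7C rose by 0.70 (SE 0.15, adjusted p = 0.000399), COX6C by 0.41 (SE 0.12, adjusted p = 0.00452) and NDUFB8 by 0.38 (SE 0.13, adjusted p = 0.0157). ATP5I changed by -0.39 (SE 0.13, adjusted p = 0.014). The call of NDUFB8 was lost without day 37 runt replicate 1 or 4 or day 110 runt replicate 2 or 4, and that of ATP5I without day 110 runt replicate 3 (adjusted p = 0.0512). On slides 4 to 9 alone neither NDUFB8 (0.40, adjusted p = 0.105) nor ATP5I (-0.36, adjusted p = 0.19) was called, and with slide as a fixed block NDUFB8 was not (0.34, adjusted p = 0.083).

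UQCR10 stood at 7.09, 7.67, 7.67 and 7.50 in the day 37 runts, at 7.16, 7.11, 7.19 and 7.03 at day 50, at 7.08, 7.17, 7.29 and 7.01 at day 70 and at 6.31, 6.19, 6.46 and 6.68 at day 110. As in the controls, every day 110 array was below every earlier array. The change was -1.07 from day 37 (SE 0.12, n = 4 and 4, adjusted p = 3.45e-08), a 2.10-fold difference, with -1.01 on slides 1 to 3 (adjusted p = 0.0104) and -1.13 on slides 4 to 9 (adjusted p = 0.000193). COX8H had -3.30, -4.48, -6.42 and -3.80 in the day 37 runts and -7.79, -6.99, -7.08 and -5.03 in those of day 110, of which 0 of 4 were well above background. The measured means were -4.50 and -6.72 (SE of the difference 0.68, adjusted p = 0.00779), and the groups overlapped. With each day 110 value raised to the lowest signal well above background on its array, the day 37 mean was 1.53-fold higher. This bound takes no account of the spread between arrays, and 3 of the 4 day 37 arrays were well above background. The change was -0.61 with normexp (adjusted p = 0.254), -0.95 on slides 1 to 3 (adjusted p = 0.539) and -3.49 on slides 4 to 9 (adjusted p = 0.000334).

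Between consecutive days the runts had 3 calls from day 37 to day 50, where 15.3% of all features were called. NDUFV2 changed by -0.42 (adjusted p = 0.0401) and UQCR10 by -0.36 (adjusted p = 0.0438), and COX8H, above background on 3 of the 4 day 37 arrays, rose by 2.32 (SE 0.68, adjusted p = 0.0212). With slide as a fixed block NDUFV2 (-0.31, adjusted p = 0.12) and UQCR10 (-0.36, adjusted p = 0.115) were not called. Neither were they with quantile normalization (adjusted p = 0.241 and 0.159). Of the 8 fits that left out 1 array, 6 lost the call of NDUFV2 (adjusted p up to 0.127) and 7 that of UQCR10 (up to 0.154). The number of calls ran from 0 to 7 as 1 array at a time was left out. It was 7 without day 37 runt replicate 1, the array on which 15 of the 18 genes had the lowest value of that group. With normexp it was 11, 1 higher and 10 lower, where 20.6% of all features were called. There the median change of all features moved to 0.34, from -0.02, and that of the 18 genes to -0.82, from -0.26. COX8H was called in all but 1 of the fits that left out an array, the one without day 37 runt replicate 3. Its call held with slide as a fixed block (2.29, adjusted p = 0.0489). On slides 4 to 9 (1.69, adjusted p = 0.129) and with only the groups compared in the fit (adjusted p = 0.0511) COX8H was not called.

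From day 50 to day 70, 3 genes rose in the runts, where 25.7% of all features were called. NDUFB8 went from 5.30, 5.23, 5.42 and 5.08 to 5.88, 5.89, 5.84 and 5.86, a rise of 0.61 (SE 0.13, adjusted p = 0.00126) with groups that did not overlap. COX7C rose by 0.59 (SE 0.15, adjusted p = 0.00628) and ATP5J2 by 0.58 (SE 0.16, adjusted p = 0.00931). With slide as a fixed block ATP5J2 was not called (0.39, adjusted p = 0.119), and with quantile normalization NDUFB8 was the 1 of the 3 that was. From day 70 to day 110, 2 genes were called, where 24.5% of all features were. UQCR10 changed by -0.72 (SE 0.12, adjusted p = 4.70e-05), and COX8H had measured means of -3.74 at day 70 and -6.72 at day 110 (adjusted p = 0.0016). With the same bound on the day 110 values the day 70 mean was 2.59-fold higher, again without regard to the spread between arrays. With normexp neither UQCR10 (-0.43, adjusted p = 0.216) nor COX8H (-0.99, adjusted p = 0.0823) was called.

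Runts were compared with controls of the same day to see whether growth restriction went with other levels of these transcripts. In limma 0 of the 18 genes were called on day 37, 50, 70 or 110, where 0%, 0.0663%, 0% and 0.014% of all features were called. At an unadjusted p under 0.05 the numbers were 0, 1, 0 and 0. For the mean difference over the 4 days 0 of the 18 were called (0.248% of all features), with 1 at an unadjusted p under 0.05, and for a difference that varied between days 0 were called (0.00349% of all features), with 0 at an unadjusted p under 0.05. The 95% intervals of the mean difference, runt minus control, lay between -0.30 and 0.32 for the 17 genes other than COX8H, and that of COX8H was -1.30 to 0.09 around -0.61.

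UQCR10 had the smallest unadjusted p of the runt comparisons. At day 50 the runts had 7.16, 7.11, 7.19 and 7.03 and the controls 7.51, 7.39, 7.39 and 7.50, groups that did not overlap, where 6.24% of all features had groups that did not overlap on that day. The difference was -0.33 (95% interval -0.58 to -0.08, unadjusted p = 0.012, adjusted p = 0.459) and did not pass. It was -0.42 on slides 1 to 3, -0.30 on slides 4 to 9 and -0.29 with slide as a block. NDUFB8 at day 70 was the other case without overlap (1.1% of all features on that day), with runts at 5.84 to 5.89 and controls at 5.47 to 5.78, and a difference of 0.21 (95% interval -0.05 to 0.47).

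With the normexp background correction the runt comparison at day 50 had 15 of the 18 genes lower, among 17055 features called (59.5%). There the median of all features moved to 0.41, from -0.02, and that of the 18 genes to -0.87, from -0.13. The mean difference over days had 7 genes lower among 13896 features called (48.5%), with medians of 0.19 for all features and -0.28 for the 18 genes. In each of the other alternatives the count of called genes in the runt comparisons was 0.

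Several genes had more than 1 probe, and the probes did not always move alike. The second NDUFV2 probe changed by -0.72 in runts from day 37 to day 110, where the brighter one changed by -0.20. The other COX6B probes changed by -0.52 (adjusted p = 0.00738) and -0.86 (adjusted p = 0.000409) in controls, against 0.03 for the brightest, and by -0.22 and -0.38 in runts, where neither passed. Both COX6C probes rose alike, by 0.43 and 0.48, and the second ATP5I probe changed by -0.26 (adjusted p = 0.0699), against -0.40. The second NDUFA4 probe changed by 0.26 in controls (adjusted p = 0.219), against -0.10. The COX8H probes changed by -2.64 and -2.66 over the control course, but from day 50 to day 70 by -0.19 and -1.57 (adjusted p = 0.0427). In that interval the second NDUFV2 probe (-0.43, adjusted p = 0.0121) and the dimmest COX6B probe (-0.51, adjusted p = 0.0485) also passed. Whether these probes read different transcripts was not tested.

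**Figure D4:**
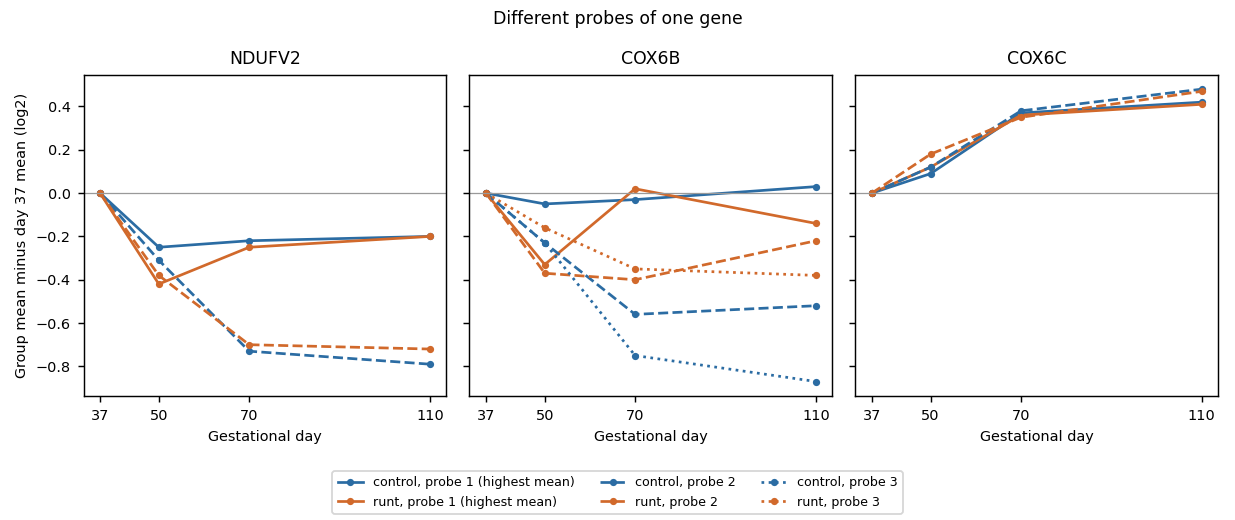
Group mean minus the day 37 mean (log2) against gestational day for each probe of NDUFV2, COX6B and COX6C, controls in blue and runts in orange, the brightest probe with a solid line. The COX6C probes rose together, while the second NDUFV2 probe and the other COX6B probes fell below the brightest one.

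Within groups the deviations of the 18 genes were in part shared. Over the 32 arrays, each centred on its group mean, the 153 pairs of genes had correlations from -0.47 to 0.88 with a median of 0.27, and 123 pairs were above 0. The highest was between NDUFV2 and COX7A2. The pairs share arrays and their scaling, so this describes the libraries. Across the 8 group means, the symbols most like the mean of the 18 profiles included SIRT2 (Pearson r = 0.97), CHFR (0.96), IFI30 (0.96) and PKIA (0.95). Without COX8H, whose changes are the widest, they were FMO1 (0.93), BTG3 (0.92), TLK1 (0.92), DNASE2 (0.91) and JPT2 (0.90).

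Other genes of mitochondrial energy metabolism were followed in the same livers, and their counts stand beside the 27.1% of all features that rose and the 26% that fell over the control course. Among 9 regulators measured, 5 rose and 2 fell from day 37 to day 110 in controls. PRKAA2, a catalytic subunit of the AMP-activated kinase, rose by 2.30 (adjusted p = 1.32e-10), PPARGC1A, the coactivator of mitochondrial biogenesis, by 1.81 (adjusted p = 2.38e-09) and THRA, a thyroid hormone receptor, by 1.39 (adjusted p = 1.10e-06). TFAM, the transcription factor of mitochondrial DNA, fell (-0.67, adjusted p = 0.00282). PET100, a chaperone in the assembly of complex IV and the one assembly gene of complexes II to V measured out of 35 listed, fell as well (-0.69, adjusted p = 0.000607). Of 26 mitochondrially encoded symbols and 15 complex I assembly factors listed, 0 were measured.

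In the citric acid cycle and fatty acid oxidation lists genes were called in both directions, and in glycolysis the calls were all lower. Of 13 genes listed for the citric acid cycle and pyruvate dehydrogenase, a list that also holds the cytosolic MDH1, 2 rose and 4 fell. PDK4, a kinase that switches pyruvate dehydrogenase off, rose by 3.14 (adjusted p = 2.65e-06), while DLAT, a core subunit of that enzyme (-0.94, adjusted p = 1.69e-06), and MDH1, the cytosolic malate dehydrogenase (-1.14, adjusted p = 2.97e-06), fell. Of 9 genes of fatty acid oxidation CPT1A, the gate of fatty acid entry, rose by 2.24 (adjusted p = 1.49e-08), and 3 fell, among them the dehydrogenases ACADL (-1.48, adjusted p = 2.89e-08) and ACADM (-0.79, adjusted p = 0.000111). In glycolysis 5 of 7 fell and 0 rose, with LDHA at -1.84 (adjusted p = 1.14e-06), PFKM at -1.15 and LDHB at -0.70.

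Among 9 carriers, porins and uncoupling proteins 5 fell and 1 rose. VDAC3, a porin of the outer membrane, fell (-2.45, adjusted p = 2.72e-12), and so did TSPO (-2.65), another outer membrane protein, and UCP2 (-1.77), an uncoupling protein. The carriers that supply the ATP synthase were not called, with SLC25A3, the phosphate carrier, at -0.04 and SLC25A6, an ADP/ATP carrier, at 0.05. Of 4 antioxidant enzymes GPX1 (-1.79) and GPX4 (-0.90) fell, and PRDX5 (0.26) was not called. Of the 2 genes of electron shuttles GOT2, the mitochondrial aspartate aminotransferase, rose (0.38, adjusted p = 0.0434) and GOT1 (0.56, adjusted p = 0.0617) was not called. Of 9 hypoxia-responsive genes, which include LDHA, 3 rose and 3 fell, with P4HA1 at 2.28 and VEGFA at 2.08.

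In runts against controls, over the mean of the 4 days, 0 of these pathway genes other than ACAA2 were called. ACAA2, the last enzyme of the fatty acid oxidation cycle, was higher in runts by 0.62 (adjusted p = 0.0491). Of the 7 hepatocyte markers ALB, the albumin gene, was lower in runts (-1.53, adjusted p = 0.0223) and the other 6 were not called, with a median over the list of 0.17. These calls depended on the fit. With slide as a fixed block 1 of all features was called for this mean difference, against 71 without the block. That feature was higher in runts, so the fall of ALB did not pass there.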

How the data were processed

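RNA of 32 fetal pig livers was hybridised to 1-colour Agilent arrays (Cy3) and read with Feature Extraction 10.7.3.1, per the file headers. The deposited scanner files give each spot's processed signal, a background-subtracted fluorescence intensity, per the file headers. A series-wide value table by the authors is in log2; the submitters' processing notes name Partek, the centring is unstated, and it served as an alternative.

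The log2 processed signal minus the 75th percentile of the array was used. Spots of a probe were averaged, and control spots and outlier spots were left out; 0 spots were saturated. Probes were named through RefSeq accessions (2683 of 43603 matched). A probe was kept when well above background on at least 3 of 4 arrays of some group, and the probe with the highest mean stood for a gene.

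The 8 group means were estimated jointly in limma 3.58.1 under R 4.3.3, which left 24 residual degrees of freedom; tests were two-sided. The scripts were tested on simulated data. The members and lists were chosen with earlier results of these data known.

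Values are printed for called members, isoform pairs, the 3 smallest changes and up to 3 genes per pathway list by adjusted p; others named in the text were chosen after their values were seen. One symbol among those most like the mean profile is not reported here. Alternatives were normexp background (offset 50, on the median signal, since the mean signal that had been planned is not used here), quantile and median scaling, the deposited values, other dim-probe filters, averaged probes, slide or replicate number as a block, each slide set, only the groups compared, a 2-fold rule, and leaving out each array.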

Additional observations from a re-analysis of the deposited data

Results flagged for a closer look

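In 8 of 144 gene and group pairs 1 of the 4 arrays stood apart, its gap to the nearest array divided by the range of the group being above Dixon's 95% critical value. Chance flags about 1 in 20 groups. The ratio was 0.864 for NDUFV2 in day 37 runt replicate 1 (4.68, against 5.17 to 5.24), 0.835 for NDUFC1 in day 50 control replicate 3 and 0.836 for SDHB in day 50 control replicate 4. It was 0.83 for NDUFA4 in day 110 runt replicate 4, 0.859 for COX7C in day 110 control replicate 3 (4.88, against 5.43 to 5.52) and 0.88 for ATP5O in day 37 control replicate 2. For ATP5G1 it was 0.895 in day 70 control replicate 4 and 0.836 in day 110 control replicate 2. Without day 110 control replicate 3 COX7C was still called over the control course.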

How the results depend on the processing

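Values of called genes kept their direction in all 307 alternatives that changed a setting other than the arrays left out, and 71 of them no longer passed. With normexp 0 of the 18 genes were called for control day 70 against 50, 1 for control day 110 against 70 and against 37, 11 for runt day 50 against 37, 0 for runt day 110 against 70, 2 for runt day 110 against 37, 15 for runts against controls at day 50 and 7 for the mean runt difference; the cause was not tested. SDHB (-0.69), COX6C (-0.71) and ATP5G1 (-0.71) turned to lower in day 50 runts with normexp, and COX6B (-0.45) over the control course with probes averaged. Quantile normalization and the deposited values each gave 3 for control day 70 against 50, 1 for runt day 50 against 37 and 1 for runt day 70 against 50. Averaged probes gave 3 higher and 5 lower for control day 110 against 37, and 3 higher and 4 lower for runt day 110 against 37. On slides 1 to 3 alone, where fewer arrays were fitted and a group of 1 array is assumed to vary like the others, 0 were called for control day 70 against 50, day 110 against 70 and day 110 against 37 and for each runt interval except day 110 against 37 (1). Slides 4 to 9 alone gave 0 for control day 70 against 50 and 0 for runt day 50 against 37. Slide as a random block gave 2 for control day 70 against 50, and slide as a fixed block 1 for runt day 50 against 37. No dim-probe filter gave 1 for runt day 50 against 37, and the stricter filter, which leaves out COX8H, 1 for runt day 110 against 70. Fitting only the groups compared gave 0 for runt day 50 against 37 and 3 for runt day 110 against 37. With a 2-fold rule the counts were 0, 1 and 1 for control day 70 against 50, 110 against 70 and 110 against 37, and 1, 0, 1 and 2 for runt day 50 against 37, 70 against 50, 110 against 70 and 110 against 37. Leaving out 1 array gave 0 to 7 calls for runt day 50 against 37 (each array but day 50 runt replicate 3 moved it) and 3 to 5 for runt day 70 against 50 (5 without day 50 runt replicate 1). Replicate numbers were not taken to pair the samples, since the labels do not tie them to litters and not every pair correlated over 0.1: same-numbered arrays correlated at -0.09 to 0.42, 13 of 16 pairs over 0.1, with all 4 pairs at days 37 and 110 among them, and 8 of 16 matched their own number best, a hint of pairing from the data and not from the design. With the replicate number as a block the counts were 0, 1, 4 and 7 for the control intervals, 3, 4, 3 and 6 for the runt intervals and 0 for each runt comparison. COX8H at day 110 is limited by signal over background, and the number of arrays limits the rest.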
